A study of Mus musculus with 34 samples.

Results

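The genes described here are 7 transcription factors of the circadian clock's output: Dbp, Tef, Hlf, Nfil3, Ciart, Bhlhe40 and Bhlhe41. They were chosen by symbol, as 7 of the 23011 genes in the deposited count table. The choice used no cutoff on measured values, but earlier results of these data were known when it was made. The molecular clock is a feedback loop in which a dimer of CLOCK and BMAL1 (the product of Arntl) switches on its own repressors, and it runs in muscle as in other tissues. The same dimer binds the E-box CACGTG near output genes and drives their daily rhythm. DBP, TEF and HLF, the PAR-bZIP proteins, activate genes through the D-box, where NFIL3 competes with them as a repressor. CIART (also called CHRONO), BHLHE40 (DEC1) and BHLHE41 (DEC2) bind or act on the clock's E-boxes and damp the dimer's activity. BHLHE40 is also known to respond to hypoxia.

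The libraries hold RNA of 2 hindlimb muscles, the slow, posture-holding soleus and the fast plantaris beside it, from female mice of 24 months (called aged) or 6 months (called young). Trained mice had progressive weighted wheel running (PoWeR), voluntary running on a wheel with added weight. It lasted 8 weeks, and age-matched sedentary mice were the controls. Tissue was taken after an overnight fast, which for PoWeR mice came with a 24 h wheel lock. The 34 libraries form 8 groups of muscle, age and training, 5 for each muscle of aged sedentary mice and 4 for the remaining 6 groups. No strain, genotype or hour of collection is given in the sources used here. Whether libraries within a group stem from separate animals is not stated, so a p-value measures the spread between libraries, which may be partly technical. In bulk muscle, fewer cells that express a gene and less of its RNA per cell cannot be told apart.

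Total counts ran from 15237626 to 26250461 per library. Myh7, the heavy chain of slow fibres, was at 16140 to 30070 CPM in soleus libraries and 59.7 to 1764 CPM in aged plantaris. CPM are counts relative to a library's total, which was adjusted by a composition factor. The libraries labelled young plantaris had 19980 to 32440 CPM of Myh7, and their Myh4, which the fastest fibres use, was at 14.2 to 41.8 CPM against 13050 to 73340 CPM in aged plantaris. Their myosin goes against their label, so they are called "the libraries labelled young plantaris" throughout, and no test set them against aged plantaris. In 5 young libraries, 1 of soleus PoWeR, 1 of the labelled plantaris sedentary group and 3 of its PoWeR group, an rRNA repeat took under 0.7% of counts. The aged plantaris libraries PoWeR 12, with the least Myh4 of its group, and sedentary 16, with the least Myh7 and most Myh4 of its group, stand apart, and results that rest on them are given without them.

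Promoter windows were read from RefSeq on GRCm38.p6, from 250 bases before to 50 bases after each listed start. There were 7 windows for 6 of the 7 genes; Bhlhe40 had no entry. The windows of Ciart, Tef and Bhlhe41 are shown because they hold the E-box through which CLOCK and BMAL1 act. Each is printed 5′ to 3′ on the gene's strand in lower case, with CACGTG in capitals. Ciart lies on the minus strand (chr3:95882179-95882478), Bhlhe41 on the minus strand (chr6:145865371-145865670), and Tef has 2 listed starts on the plus strand (chr15:81802423-81802722 and chr15:81811164-81811463).
Ciart: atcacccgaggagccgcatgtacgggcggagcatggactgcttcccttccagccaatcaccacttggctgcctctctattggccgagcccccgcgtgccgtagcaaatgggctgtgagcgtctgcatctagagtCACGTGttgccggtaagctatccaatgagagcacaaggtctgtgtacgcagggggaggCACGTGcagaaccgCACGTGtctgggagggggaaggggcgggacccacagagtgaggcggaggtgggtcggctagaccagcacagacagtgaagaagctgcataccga
Tef, first start: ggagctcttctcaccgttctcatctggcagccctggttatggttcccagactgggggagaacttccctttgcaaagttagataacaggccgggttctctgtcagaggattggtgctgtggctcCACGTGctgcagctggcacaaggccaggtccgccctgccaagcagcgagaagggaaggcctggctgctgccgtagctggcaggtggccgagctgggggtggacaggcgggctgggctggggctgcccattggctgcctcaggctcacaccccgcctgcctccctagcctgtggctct
Tef, second start: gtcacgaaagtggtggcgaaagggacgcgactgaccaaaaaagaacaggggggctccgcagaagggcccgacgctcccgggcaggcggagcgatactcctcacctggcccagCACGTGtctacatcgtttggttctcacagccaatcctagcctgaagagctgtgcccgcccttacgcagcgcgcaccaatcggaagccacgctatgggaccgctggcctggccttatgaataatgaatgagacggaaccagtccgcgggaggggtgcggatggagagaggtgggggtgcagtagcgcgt
Bhlhe41: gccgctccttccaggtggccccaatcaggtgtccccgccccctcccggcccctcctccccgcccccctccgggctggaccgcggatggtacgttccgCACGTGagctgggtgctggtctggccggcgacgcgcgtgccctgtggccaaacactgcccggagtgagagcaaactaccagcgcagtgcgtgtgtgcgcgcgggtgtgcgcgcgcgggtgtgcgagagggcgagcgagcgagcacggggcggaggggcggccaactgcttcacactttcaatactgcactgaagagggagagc
The Ciart window held 3 copies, whose first bases lie 116, 58 and 44 bases before the start. The Tef windows held 1 copy each, 127 and 138 bases before their starts, and the Bhlhe41 window 1, 153 bases before. CACGTG, which reads the same on both strands, was found in 7.15% of all 32851 windows, and 3 or more copies in 0.0883%. The windows of Dbp, Hlf and Nfil3 held none. No window of the 6 genes held the E'-box CACGTT, the D-boxes TTATGTAA and TTACGTAA or the RORE, searched on both strands, against 4.68%, 0.938%, 0.119% and 0.773% of all windows. A match of letters is not a binding site, and a site outside these windows would not be seen.

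All 7 genes were measured in every library and passed the filter on low counts in every fit. Tef had the most reads, 2045 to 7876 per library, and Ciart the fewest, 6 to 228. Scaled by exon length, Tef led in young sedentary soleus at 23.4 ± 0.39 CPM per kb (SD, n = 4), followed by Bhlhe40 at 19.7 ± 2.98, Dbp at 18.3 ± 3.23, Nfil3 at 10.5 ± 5.08, Bhlhe41 at 6.72 ± 1.66, Hlf at 2.05 ± 0.39 and Ciart at 1.55 ± 0.55 CPM per kb. In aged sedentary soleus, Nfil3 had 17.5 ± 7.95 CPM per kb (n = 5), close to Tef at 17.1 ± 2.21 and Bhlhe40 at 16.7 ± 3.97, while Dbp had 6.03 ± 3.96. The first 3 genes of the aged order differed by less than their SDs.

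**Figure D1:**
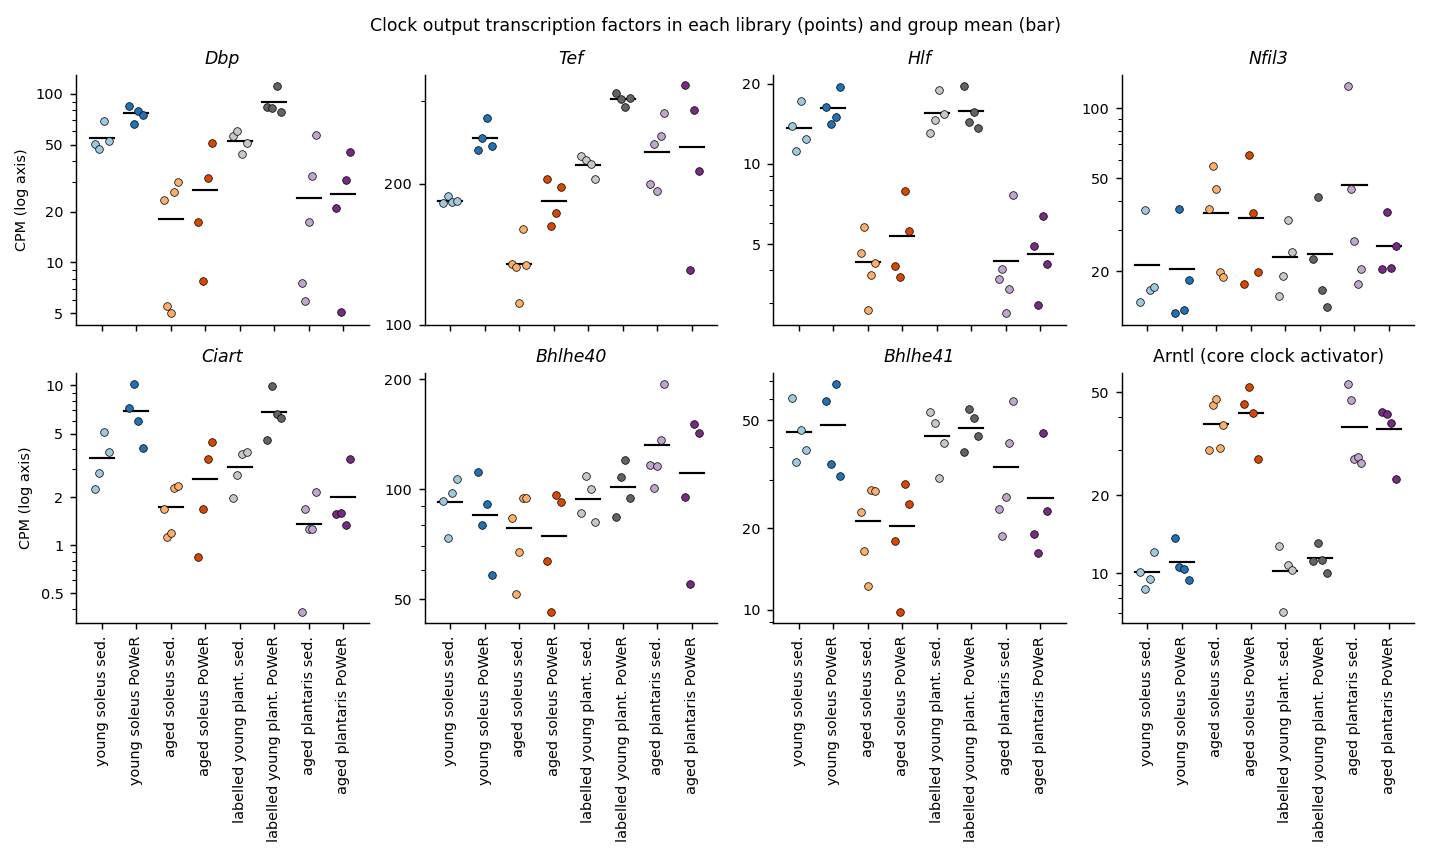
CPM of the 7 genes and of the core clock gene Arntl (log axes) in each library (points) of the 8 groups, with the group mean as a bar. Hlf, Bhlhe41 and Arntl part the young from the aged soleus libraries without overlap, and Tef lies higher after PoWeR in both ages of soleus.

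Tef, the PAR-bZIP gene with the highest level, rose with PoWeR in the soleus of both ages, and no other gene of the 7 passed the test in any PoWeR comparison. Each comparison is between libraries of 1 muscle and age, by edgeR's quasi-likelihood test with Benjamini-Hochberg adjustment over all genes tested, and called means an adjusted p under 0.05. Because no hour of collection is given for trained or sedentary mice, PoWeR and hour cannot be told apart in these comparisons.

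Tef in young sedentary soleus was at 182, 189, 183 and 184 CPM, and after PoWeR at 236, 250.3, 277 and 241 CPM. Every PoWeR library was above every sedentary library. The level rose 1.40-fold, by 0.49 ± 0.10 on the log2 scale (SE; adjusted p = 0.0084 by edgeR), and was called in all 8 fits that left out 1 library. Mitochondrial transcripts took 21.3 to 23.1% of counts in the sedentary and 10.7 to 18.5% in the PoWeR libraries of young soleus, and 13.1 to 14.5% and 10.6 to 13.4% in aged soleus. In young soleus 3 of 8 fast-fibre and 2 of 7 slow-fibre markers fell after PoWeR and none rose, beside 12.9% of all genes called. In aged soleus none of either list was called, beside 0.857% of all genes. The part of these measures in the Tef rise was not tested. In aged soleus, sedentary Tef was at 135, 133, 111, 160.2 and 134 CPM and PoWeR Tef at 204, 163, 173 and 196 CPM, again with no overlap. The rise was 1.37-fold, 0.45 ± 0.10 on the log2 scale (adjusted p = 0.026 by edgeR). That call is less firm: it held in 3 of the 9 fits that left out 1 library and was lost without PoWeR 10 or 15 or without sedentary 12, 13, 14 or 16, with adjusted p of 0.058 to 0.077 by edgeR and log2 changes of 0.40 to 0.46. Over all alternatives its adjusted p ran from 0.0010 to 0.25 and its log2 change from 0.40 to 0.52.

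The background differs between these comparisons. In young soleus 12.9% of genes were called (1920 of 14934), so 1 of 7 is near the background. In aged soleus 0.857% of genes were called (128 of 14934). Groups did not overlap for 14.9% of genes in young soleus and for 6.77% in aged soleus, where Tef was the 1 such gene of the 7 in each.

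In the libraries labelled young plantaris, Tef was at 229, 225, 220.1 and 204 CPM when sedentary and at 313, 304, 292 and 306 CPM after PoWeR, without overlap. The log2 difference of 0.48 ± 0.19 did not pass the test (adjusted p = 0.30 by edgeR). That fit shares its estimate of spread with the aged plantaris libraries. With only the groups compared the difference was 0.47 and still missed the threshold (adjusted p = 0.051 by edgeR, the lowest of 0.051 to 0.60 over the alternatives). Of all genes, 0.223% were called in this comparison (34 of 15280) and none of the 7 by DESeq2 or by edgeR with all 17 libraries in the fit, while 2 of the 7, Tef and Ciart, had an unadjusted p under 0.05. Dbp, Tef and Ciart did not overlap between the groups, against 7.66% of all genes. The rRNA share was under 0.7% in 3 of the 4 PoWeR and 1 of the 4 sedentary libraries, so each class held an arm of 1 library and no value within a class is given. With a term for this share in the fit, the Tef log2 difference was 0.45 (adjusted p = 0.59 by edgeR).

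In aged plantaris Tef had 199, 243, 193, 253 and 283 CPM when sedentary and 325, 131, 288 and 213 CPM after PoWeR. The groups overlapped, and the lowest PoWeR value was in library 12. The log2 difference was 0.03 ± 0.18 (adjusted p = 0.97 by edgeR), with a 95% interval of -0.31 to 0.38. Without PoWeR 12 and sedentary 16 it was 0.31 (adjusted p = 0.66 by edgeR, with 0.66 to 1.0 over the alternatives). No gene of the 7 was called by edgeR or DESeq2, had an unadjusted p under 0.05 or was free of overlap between the groups, and 0.0262% of all genes were called (4 of 15280), with 2.86% free of overlap.

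Whether the Tef effect differed was tested directly. Between ages in soleus the difference of log2 effects, aged minus young, was -0.03 ± 0.14 (adjusted p = 0.95 by edgeR), with an interval of -0.31 to 0.25. Between muscles at 24 months, soleus minus plantaris, it was 0.42 ± 0.26 (adjusted p = 0.54 by edgeR), with an interval of -0.09 to 0.94. In both tests 0.0% of genes were called by edgeR; 1995 and 1785 genes had an unadjusted p under 0.05, and DESeq2 called 73 and 183. None of the 7 genes was called in either test by edgeR or DESeq2, and none had an unadjusted p under 0.05.

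Ciart, the E-box repressor with 3 CACGTG copies in its window, had the largest fitted PoWeR difference in 3 of the 4 comparisons (aged soleus, young soleus and the libraries labelled young plantaris), but it was never called. In young soleus it had 2.24, 2.85, 5.10 and 3.83 CPM when sedentary and 7.26, 10.2, 6.01 and 4.08 CPM after PoWeR. The lowest PoWeR library lay within the sedentary range. The log2 difference was 0.995 ± 0.39 (adjusted p = 0.10 by edgeR). In the libraries labelled young plantaris it had 1.962, 2.74, 3.73 and 3.82 CPM against 4.57, 9.95, 6.58 and 6.25 CPM after PoWeR, with no overlap and a log2 difference of 1.16 ± 0.37 (adjusted p = 0.21 by edgeR). In aged soleus it was 0.59 ± 0.40 and in aged plantaris 0.58 ± 0.39 on the log2 scale (adjusted p = 0.59 and 0.65 by edgeR), from levels of 0.38 to 4.40 CPM in all aged libraries.

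Dbp, the PAR-bZIP gene with the widest daily swing in many tissues, had higher means after PoWeR but did not pass. In young soleus it was at 50.4, 47.1, 68.8 and 52.3 CPM when sedentary and at 85.2, 66.5, 79.5 and 75.2 CPM after PoWeR. The ranges touched at 1 library on each side, and the log2 difference was 0.52 ± 0.55 (adjusted p = 0.58 by edgeR, with 0.057 to 0.73 over the alternatives). That fit shares its estimate of spread with the aged soleus libraries, where Dbp varied more. In the libraries labelled young plantaris the values were 55.9, 60.2, 43.8 and 51.3 CPM against 84.0, 82.3, 111 and 78.4 CPM, without overlap, and the log2 difference was 0.77 ± 0.63 (adjusted p = 0.68 by edgeR). Fitted with only those groups, whose libraries vary less than the aged ones, that difference was called (adjusted p = 0.028 by edgeR, the lowest of 0.028 to 0.84 over the alternatives).

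The aged libraries spread far more. In aged soleus Dbp was at 23.6, 5.53, 5.01, 26.3 and 29.8 CPM in sedentary libraries 12 to 16, and at 17.3, 7.79, 31.5 and 50.8 CPM in PoWeR libraries 10, 12, 14 and 15. Its coefficient of variation was 65.8% and 69.6% there, against 17.7% and 10.3% in young soleus. Several young labels hold paired numbers, unlike the aged labels, and whether those libraries pool mice is not stated. The log2 difference in aged soleus was 0.58 ± 0.54 (adjusted p = 0.74 by edgeR). In aged plantaris Dbp was at 7.59, 5.95, 17.4, 32.7 and 57.2 CPM in sedentary libraries 12 to 16 and at 21.04, 5.09, 30.7 and 45.1 CPM in PoWeR libraries 10, 12, 14 and 15. The log2 difference of 0.08 ± 0.61 (adjusted p = 0.98 by edgeR) was -0.36 without PoWeR 15, 0.68 without sedentary 16 and 1.02 without both PoWeR 12 and sedentary 16, so single libraries set its direction.

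Hlf, the PAR-bZIP gene at the lowest level, had log2 PoWeR differences of 0.33 ± 0.22 in aged soleus, 0.28 ± 0.21 in young soleus, 0.10 ± 0.25 in aged plantaris and 0.03 ± 0.24 in the libraries labelled young plantaris, none called. Nfil3, the D-box repressor, had log2 differences of -0.05 ± 0.46, 0.00058 ± 0.49, -0.84 ± 0.54 and 0.05 ± 0.56 in the same order of comparisons, none called. Its aged plantaris difference rests on sedentary library 12, at 124 CPM against 17.6 to 45.1 CPM in the other 4 sedentary and 20.6 to 35.9 CPM in the PoWeR libraries. Bhlhe40 and Bhlhe41, the E-box repressors of the DEC family, lay between -0.38 and 0.13 on the log2 scale in the 4 comparisons. The interval for Bhlhe40 in young soleus was -0.57 to 0.38 and in aged soleus -0.52 to 0.38, and changes within those bounds could not be told from 0. Over the 7 genes the median log2 PoWeR difference was 0.33 in aged soleus, 0.28 in young soleus, 0.12 in the libraries labelled young plantaris and 0.03 in aged plantaris, beside 0.00, 0.04, 0.01 and 0.01 over all genes tested.

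**Figure D2:**
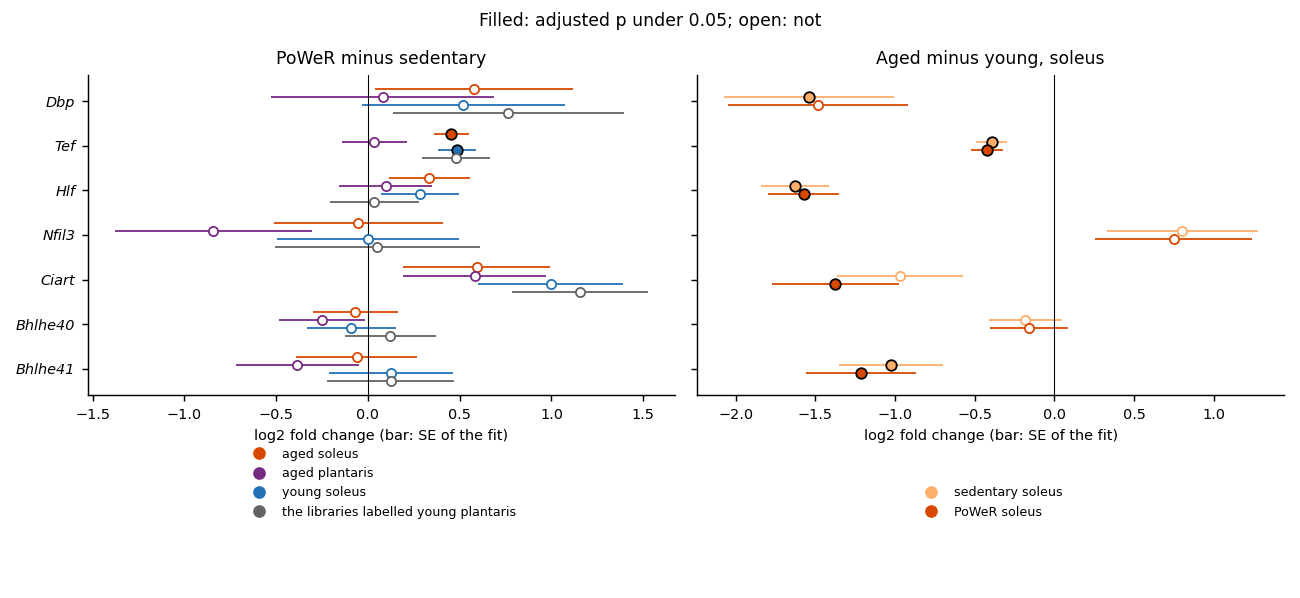
Fitted log2 fold changes (points, horizontal axis) with their SE (bars) for the 7 genes, PoWeR against sedentary on the left and aged against young soleus on the right; filled points passed an adjusted p of 0.05. Tef is the only filled gene on the left, in aged and young soleus, and Hlf lies farthest from 0 among the filled points on the right.

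Aged soleus had less of Hlf, Dbp, Bhlhe41 and Tef than young soleus in sedentary mice, and less of Hlf, Ciart, Bhlhe41 and Tef after PoWeR. In each comparison 4 of the 7 genes fell and none rose. This count stands beside 36.2% of all genes called in sedentary soleus (5411 of 14934) and 37.9% after PoWeR (5656 of 14934), and a difference from that background was not tested. The share of all genes without overlap was not counted for the age comparisons or for those between muscles, so a lack of overlap has no background there. The median log2 difference of the 7 was -0.97 in sedentary and -1.21 in PoWeR soleus, beside 0.03 and 0.02 over all genes.

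Hlf showed the largest fall. Sedentary Hlf was at 4.65, 5.78, 2.83, 3.84 and 4.27 CPM in aged and at 13.9, 11.2, 17.2 and 12.4 CPM in young soleus. PoWeR Hlf was at 4.14, 3.76, 7.91 and 5.61 CPM in aged and at 16.3, 14.2, 14.98 and 19.5 CPM in young soleus. No aged library reached the lowest young one in either condition. It was 3.09-fold lower in sedentary soleus, a log2 change of -1.63 ± 0.21 (adjusted p = 7.4e-06 by edgeR), and 2.98-fold lower after PoWeR, at -1.57 ± 0.22 (adjusted p = 2.2e-05 by edgeR), and was called in all fits that left out 1 library.

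Dbp fell by 1.54 ± 0.54 on the log2 scale in sedentary soleus (adjusted p = 0.037 by edgeR), a 2.91-fold lower level with no overlap of libraries. The call was lost in 6 of the 9 fits that left out 1 library, without aged 13 or 14 or without any 1 of the 4 young libraries, where adjusted p reached 0.051 to 0.082 by edgeR; over all alternatives it was 0.015 to 0.082. After PoWeR the log2 difference was -1.48 ± 0.57 and just missed the threshold (adjusted p = 0.053 by edgeR), also without overlap. Without aged PoWeR 15 it was -1.996 and called (adjusted p = 0.021 by edgeR, the lowest of 0.021 to 0.12 over the alternatives). Tef was 1.31-fold lower in sedentary and 1.34-fold lower in PoWeR soleus of aged mice, at -0.39 ± 0.10 and -0.42 ± 0.10 on the log2 scale (adjusted p = 0.0035 and 0.0031 by edgeR). Both Tef calls held in all fits that left out 1 library. Tef of aged PoWeR soleus, at 184 ± 19.6 CPM (SD, n = 4), was level with that of young sedentary soleus, at 184 ± 3.09 CPM (n = 4).

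Bhlhe41 in sedentary soleus was at 23.0, 16.5, 12.2, 27.6 and 27.4 CPM in aged and at 60.5, 35.1, 46.1 and 39.0 CPM in young mice, with no overlap. It was 2.04-fold lower in aged sedentary soleus, -1.03 ± 0.32 on the log2 scale (adjusted p = 0.022 by edgeR), and 2.32-fold lower after PoWeR, -1.21 ± 0.35 (adjusted p = 0.013 by edgeR). The sedentary call was lost without young sedentary 1 and the PoWeR call without young PoWeR 3 (adjusted p = 0.073 and 0.0502 by edgeR, the highest over the alternatives, whose lowest were 0.0087 and 0.0031). Ciart was at 1.69, 1.12, 1.197, 2.28 and 2.33 CPM in aged sedentary soleus and at 0.84, 1.67, 3.46 and 4.40 CPM after PoWeR, beside the young values above. Its log2 difference was -0.97 ± 0.40 in sedentary soleus (adjusted p = 0.062 by edgeR, with 0.017 to 0.19 over the alternatives) and -1.37 ± 0.40 after PoWeR (adjusted p = 0.011 by edgeR), where the highest aged library overlapped the lowest young one. The sedentary difference was called by DESeq2, with only the groups compared and without young sedentary 1. DESeq2 called 5 of the 7 genes in each age comparison, adding Ciart in sedentary and Dbp in PoWeR soleus. Over all genes DESeq2 called 5788 of 14932 in sedentary and 5998 of 14932 in PoWeR soleus, also more than edgeR.

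Bhlhe40, the close relative of Bhlhe41, was at 51.7 to 94.9 CPM in aged and 73.4 to 107 CPM in young sedentary soleus. Its log2 difference was -0.18 ± 0.23 in sedentary and -0.16 ± 0.24 in PoWeR soleus (adjusted p = 0.57 and 0.64 by edgeR). Nfil3 had higher means in aged soleus but overlapped widely, at 19.0 to 56.3 CPM against 14.7 to 36.7 CPM in sedentary mice. The log2 difference was 0.80 ± 0.47 in sedentary and 0.75 ± 0.49 in PoWeR soleus (adjusted p = 0.21 and 0.25 by edgeR).

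Other measures were set side by side for the same comparison. Arntl, which in many tissues peaks at about the opposite time of day from Dbp, was at 27.5 to 52.2 CPM in the 9 aged and 8.68 to 13.6 CPM in the 8 young soleus libraries. It was higher in aged soleus by 1.963 ± 0.18 on the log2 scale in sedentary and 1.95 ± 0.19 in PoWeR mice (adjusted p = 1.2e-07 and 2.4e-07 by edgeR). Since the ages were separate sets of mice and no hour of collection is given, age and hour cannot be told apart in these differences. Tendon markers (Comp, Fmod, Scx, Thbs4 and Tnmd) fell in aged soleus, 5 of 5 in sedentary and 4 of 5 in PoWeR mice, with summed levels of 61.7 to 122 CPM against 261 to 548 CPM and of 77.5 to 137 CPM against 292 to 729 CPM. Fibro-adipogenic markers fell for 1 of 5 in sedentary and 4 of 5 in PoWeR mice, with summed levels of 165 to 371 against 318 to 427 CPM and 256 to 288 against 339 to 657 CPM. None of these markers was at 0 throughout a group. Fast-fibre markers were higher in aged soleus for 3 of 8 and lower for 1 in sedentary mice, and higher for 3 of 8 after PoWeR, with summed levels of 33370 to 41420 CPM against 27920 to 29620 CPM and 29560 to 35000 CPM against 18940 to 31320 CPM. Of 7 slow-fibre markers, 1 was higher and 2 lower in aged sedentary soleus, and 2 were higher and 1 lower after PoWeR. All these marker counts stand beside 36.2% of all genes called in sedentary and 37.9% in PoWeR soleus. A difference of any marker list from that background was not tested. Myh4 was at 13.99 to 1623 CPM in aged sedentary soleus, the highest in library 13, against 14.1 to 24.6 CPM in young. The mitochondrial shares given with Tef also differed between the ages, without overlap in sedentary mice. The part of these in the 7 genes' differences was not tested.

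Within the aged mice, Tef was lower in soleus than in plantaris. In sedentary mice the values above gave 111 to 160.2 CPM against 193 to 283 CPM, without overlap. Soleus Tef was 1.71-fold lower, -0.77 ± 0.18 on the log2 scale (adjusted p = 0.0020 by edgeR), and it was the 1 gene of the 7 called, where 32.9% of all genes were called (4871 of 14823). After PoWeR the log2 difference was -0.35 ± 0.20 (adjusted p = 0.23 by edgeR). None of the 7 was called by DESeq2 or by edgeR in this fit, which has no term for the label number, against 22.5% of all genes (3340 of 14823). None had an unadjusted p under 0.05 in that edgeR fit. Without plantaris PoWeR 12 the Tef difference was -0.55 and called (adjusted p = 0.011 by edgeR); without it and sedentary 16 both Tef and Bhlhe40 were called, at -0.55 and -0.76 (adjusted p = 0.0067 and 0.045 by edgeR). Over the alternatives these adjusted p ran from 0.0067 to 0.59 and from 0.0025 to 0.50. Plantaris PoWeR 12 had 13050 CPM of Myh4, against 31290 to 52280 CPM in the rest of its group.

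Bhlhe40 was the other gene near the threshold between muscles. Aged sedentary soleus had 83.2, 51.7, 67.3, 94.7 and 94.9 CPM, and plantaris 116.3, 100.5, 116.1, 136 and 194 CPM in libraries of the same numbers. No soleus library reached the lowest plantaris one, and the log2 difference was -0.73 ± 0.28 (adjusted p = 0.054 by edgeR; called by DESeq2, adjusted p = 0.010; 2.7e-05 to 0.16 over the alternatives). After PoWeR it was -0.54 ± 0.31 (adjusted p = 0.24 by edgeR). Bhlhe41, Dbp, Nfil3, Hlf and Ciart had log2 muscle differences of -0.64 ± 0.38, -0.40 ± 0.75, -0.37 ± 0.53, 0.01 ± 0.28 and 0.38 ± 0.45 in sedentary mice, none called in this fit. It has no term for the label numbers that soleus and plantaris libraries share. With those numbers as a block, edgeR called Bhlhe40 in sedentary and PoWeR mice and Bhlhe41 in sedentary mice, with values given under processing below. The labels do not say that 1 number is 1 animal.

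The order of mean levels over the 8 groups put young groups first for Dbp, Hlf, Ciart and Bhlhe41. For Dbp the young groups had 52.8 to 89.0 CPM and the aged groups 18.04 to 26.9 CPM; only the steps from 76.6 to 54.7 CPM and from 52.8 to 26.9 CPM exceeded the larger SD of the neighbours, and no neighbouring groups were free of overlap. For Hlf the 4 young means lay at 13.7 to 16.2 CPM and the 4 aged means at 4.27 to 5.36 CPM, and the step between them was the one free of overlap. Tef ran from 304 ± 8.60 CPM in the libraries labelled young plantaris after PoWeR (n = 4) to 135 ± 17.4 CPM in aged sedentary soleus (n = 5), and the first step, the last step and the one below the sedentary libraries labelled young plantaris were free of overlap. Bhlhe40 was highest in aged plantaris at 133 ± 36.4 CPM when sedentary (n = 5) and lowest in aged soleus at 74.6 ± 24.0 CPM after PoWeR (n = 4), but no neighbours in its order differed by more than their SD. Nfil3 was highest in the same aged plantaris group, 46.9 ± 44.7 CPM, and no neighbours in its order differed by more than their SD.

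Dbp, Bhlhe40 and Bhlhe41 went up and down together between soleus libraries of the same group. The values compared were deviations of log2 CPM from the group mean, with permutation p-values from reassigning libraries within groups (100000 resamples for soleus, all 2880 for aged plantaris, two-sided), adjusted over 56 relations that include Arntl, which was added after its values were seen. Over the 17 soleus libraries, r was 0.78 for Dbp with Bhlhe40, 0.77 for Dbp with Bhlhe41 and 0.83 for Bhlhe40 with Bhlhe41 (each adjusted permutation p = 0.021), with Spearman's rho of 0.82, 0.70 and 0.79 (adjusted permutation p = 0.052 each). Without the 2 libraries farthest from the median of the first gene they were 0.76, 0.60 and 0.79. Within the 9 aged libraries they were 0.91, 0.92 and 0.90, and within the 8 young ones 0.47, 0.42 and 0.69. The difference between ages was not tested.

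In aged plantaris Dbp with Bhlhe40 gave r = 0.90 (adjusted exact permutation p = 0.021) and rho = 0.93 (adjusted p = 0.052, exact permutation), and r = 0.80 without the 2 farthest libraries. Bhlhe40 with Bhlhe41 gave r = 0.82 (adjusted exact permutation p = 0.054) and Dbp with Bhlhe41 0.82 (adjusted exact permutation p = 0.10). At the low end, aged soleus sedentary 14, with 5.01 CPM of Dbp, had 67.3 CPM of Bhlhe40 and 12.2 CPM of Bhlhe41. At the high end, aged soleus PoWeR 15, with 50.8 CPM of Dbp, had 92.3 CPM of Bhlhe40 and 24.6 CPM of Bhlhe41. These libraries are of different groups. Within the PoWeR group, library 14, with less Dbp at 31.5 CPM, had more of both, at 96.5 CPM of Bhlhe40 and 29.2 CPM of Bhlhe41.

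Nfil3 had negative coefficients with these genes. With Dbp its r was -0.65 in soleus and -0.71 in aged plantaris, with Bhlhe41 -0.70 and -0.60, and with Bhlhe40 -0.64 and -0.45 (adjusted permutation p = 0.075 to 0.26), so none passed the adjustment. Aged soleus sedentary 14 and PoWeR 15 had 44.8 CPM and 19.8 CPM of Nfil3. Arntl with Dbp had r = -0.73 in soleus and -0.79 in aged plantaris (adjusted permutation p = 0.10 and 0.12). Within soleus it was -0.87 in the 9 aged and 0.24 in the 8 young libraries. Dbp with its PAR-bZIP relatives had r = 0.57 for Tef and 0.41 for Hlf in soleus (adjusted permutation p = 0.25 and 0.34), and 0.22 and 0.02 without the 2 farthest libraries. In aged plantaris these were 0.61 and 0.59 (adjusted exact permutation p = 0.23 and 0.25).

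**Figure D3:**
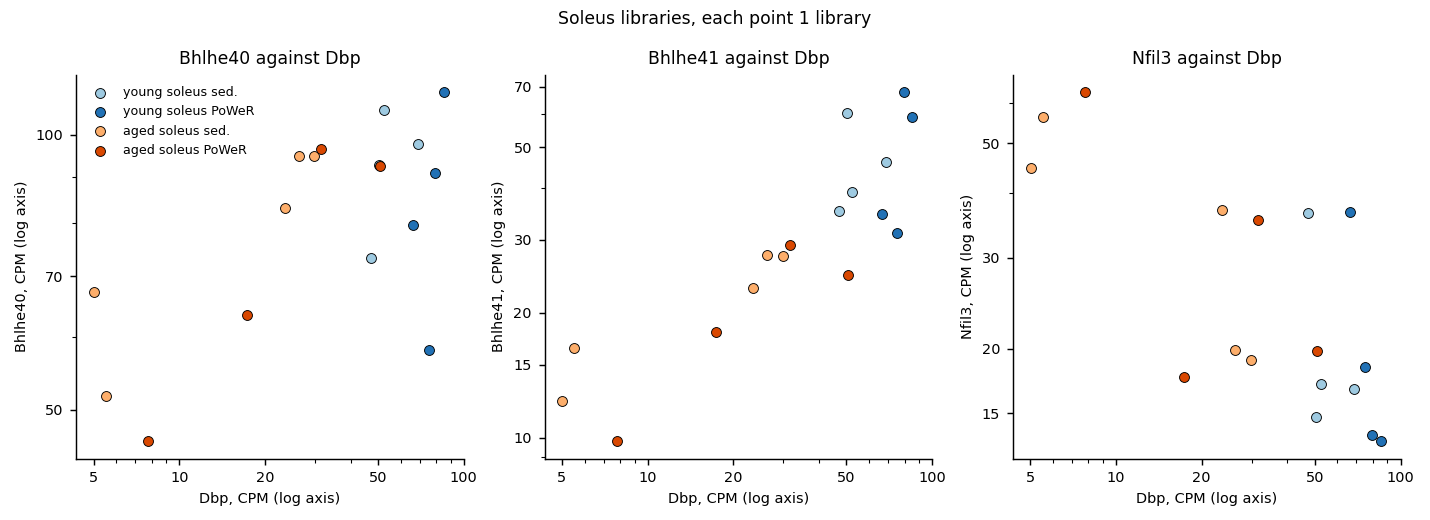
Levels of Bhlhe40, Bhlhe41 and Nfil3 (vertical axes) against Dbp (horizontal axes), in CPM on log axes, for each of the 17 soleus libraries coloured by group. Bhlhe40 and Bhlhe41 climb with Dbp along the aged libraries and Nfil3 descends, while the young libraries sit at 47.1 to 85.2 CPM of Dbp.

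**Figure D4:**
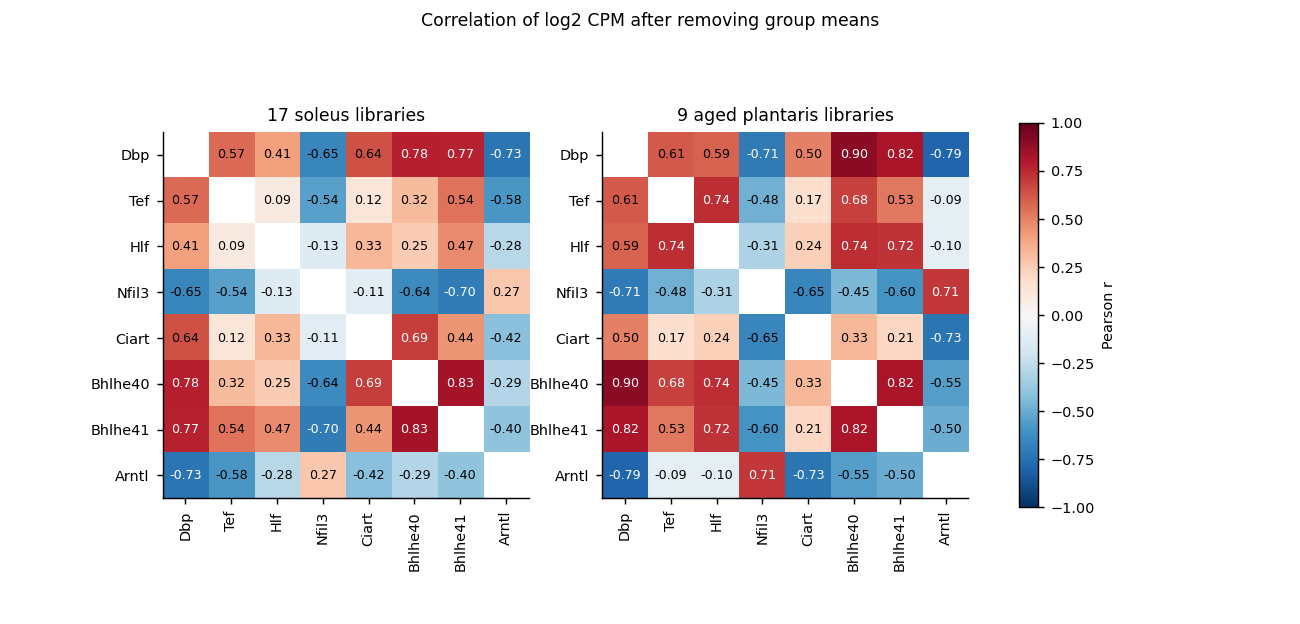
Pearson's r between the genes' log2 CPM after removing group means, over 17 soleus libraries (left) and 9 aged plantaris libraries (right), from -1 (blue) to 1 (red). Dbp, Bhlhe40 and Bhlhe41 form a block of 0.77 to 0.90 in both muscles, and Nfil3 is negative with each of them.

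The genes most like each of the 7 were taken as the 3 with the highest r over the 17 soleus libraries, out of 9455 genes with a mean of at least 5 CPM there. For Bhlhe40 the first was Nr1d1, the core clock repressor REV-ERB alpha, at r = 0.87 in soleus and 0.93 in the 9 aged plantaris libraries. For Dbp, Per3, a core clock repressor, had r = 0.85 in soleus and 0.94 in aged plantaris, beside Pik3r2 (0.85 and 0.66) and Tnk2 (0.85 and 0.75). For Nfil3 they were Ppp1r3c, a glycogen-targeting subunit of protein phosphatase 1 (0.90 and 0.74), Sdc4, a cell surface proteoglycan (0.88 and 0.97), and Klf15, a glucocorticoid-induced factor (0.87 and 0.80). For Tef they were Insyn1 (0.82 and 0.84), 5930430L01Rik (0.80 and 0.66) and Dgke (0.80 and 0.71), and for Hlf they were Ipmk (0.83 and 0.64), Prrc1 (0.78 and 0.13) and H2-Q7 (0.76 and 0.70).

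The leading genes of Ciart and Bhlhe41 had lower r in aged plantaris. The soleus r includes young libraries and the plantaris r does not, so muscle and age cannot be told apart here. P2ry2, Alpl and Slc41a1 had r = 0.86 to 0.89 with Ciart in soleus and -0.21 to 0.20 in aged plantaris. Iigp1, Myh7b and Parp14 had r = 0.85 with Bhlhe41 in soleus and 0.44, -0.33 and -0.37 in aged plantaris. The remaining Bhlhe40 matches were Gm47547 (0.86 and 0.09) and Sema6c (0.85 and 0.91). All these are the highest of 9455 values, so their size in soleus is fixed by the choice. The plantaris values did not enter the choice, but the 9 plantaris libraries share number and training with the 9 aged soleus libraries and may not be independent of them.

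Few core clock genes were called with PoWeR. Of 5 activators (Clock, Npas2, Arntl, Rora and Rorb) and 7 repressors (Per1 to Per3, Cry1, Cry2, Nr1d1 and Nr1d2), none was called in aged soleus, aged plantaris or the libraries labelled young plantaris. In young soleus Rora, a nuclear receptor that activates Arntl, rose by 0.72 ± 0.16 on the log2 scale (adjusted p = 0.011 by edgeR), from 79.7 ± 12.1 to 128 ± 33.0 CPM, and Per1 by 0.71 ± 0.22 (adjusted p = 0.042 by edgeR), from 39.2 ± 4.14 to 62.6 ± 11.8 CPM (SD, n = 4 each). Those were 2 of 12 genes, beside the 12.9% of all genes called there. Between ages, 5 of the 12 were called in sedentary soleus, near the 36.2% of all genes, and 7 of the 12 after PoWeR (Npas2, Arntl, Cry1 and Cry2 higher, Rora, Per2 and Nr1d2 lower in aged mice), beside 37.9%. In sedentary soleus of aged mice Npas2 and Arntl were higher and Rora lower among the 5 activators, and Cry2 was higher and Per2 lower among the 7 repressors. Per2 was lower, at -1.07 ± 0.29, and Npas2, a partner of BMAL1, higher by 2.02 ± 0.42 on the log2 scale (adjusted p = 0.0064 and 0.00085 by edgeR).

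Genes known to depend on PAR-bZIP factors in liver and other tissues (Pdxk, Por, Alas1 and Ppara) were called in both directions. In young soleus after PoWeR, 1 of 4 rose, Por, the electron donor of cytochromes P450, by 0.45 ± 0.14, and 1 fell, Alas1, the first enzyme of haem synthesis, by 0.44 ± 0.14 on the log2 scale (adjusted p = 0.045 and 0.040 by edgeR), beside 12.9% of all genes called. In aged soleus none of the 4 was called, beside 0.857% of all genes. With age in sedentary soleus only Alas1 was called, higher by 0.46 ± 0.13 (adjusted p = 0.0096 by edgeR), while after PoWeR Alas1 was higher by 0.74 ± 0.14 and Ppara and Pdxk were lower by 1.23 ± 0.21 and 0.70 ± 0.20 in aged soleus (adjusted p = 0.00034, 0.00025 and 0.0085 by edgeR). These are 1 and 3 of 4 genes, beside 36.2% and 37.9% of all genes.

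Of 12 clock-controlled genes of muscle, Myod1, the myogenic factor, and Pfkfb3, a regulator of glycolysis, rose in aged soleus after PoWeR, by 1.05 ± 0.22 and 1.04 ± 0.20 on the log2 scale (adjusted p = 0.024 and 0.018 by edgeR), and none fell, beside 0.857% of all genes called. In young soleus Wee1, a cell cycle kinase and known clock target, rose by 1.33 ± 0.41 (adjusted p = 0.038 by edgeR), beside 12.9% of all genes called. With age, 2 of the 12 were higher and 2 lower in sedentary soleus (Pdk4 and Ucp3; Coq10b and Hk2), a share near the 36.2% of all genes, and 5 were higher and 3 lower after PoWeR, beside 37.9%. Of 12 glucocorticoid and fasting genes, 4 rose in young soleus after PoWeR (Fkbp5, Fbxo32, Klf15 and Klf9) beside 12.9% of all genes called there. None was called in the other 3 PoWeR comparisons, where 0.857% of all genes or fewer were called. Fkbp5 rose by 1.28 ± 0.36 and Klf15 by 0.67 ± 0.21 on the log2 scale (adjusted p = 0.031 and 0.046 by edgeR). Of 8 hypoxia targets, 2 fell and 1 rose in young soleus after PoWeR, beside 12.9% of all genes. Vegfa fell by 1.01 ± 0.17 and Ldha by 0.67 ± 0.16, and Pdk1 rose by 0.33 ± 0.10 on the log2 scale (adjusted p = 0.0045, 0.013 and 0.041 by edgeR). In the libraries labelled young plantaris 1 of the 8 was called, Vegfa, which fell by 0.88 ± 0.16 (adjusted p = 0.027 by edgeR), beside 0.223% of all genes. In these comparisons Bhlhe40 stood at -0.09 ± 0.24 and 0.12 ± 0.25 on the log2 scale. Of 10 immediate early genes, Egr1 fell by 2.10 ± 0.46 in young soleus (adjusted p = 0.013 by edgeR), beside 12.9% of all genes called, and none was called in the other 3 PoWeR comparisons.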

How the data were processed

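The deposited table holds expected counts, the authors' estimated reads per gene, of which 26.7% of values are not whole. Per the submitters' processing notes, STAR 2.7.3a, Partek and DESeq2 were used on mm10, with no role or order stated. Each of the 23011 genes has a summed count of at least 10, and 0 columns were left out. Counts were rounded and fitted with edgeR 4.0.16 in R 4.3.3: TMM normalization, filterByExpr on the groups (count of 10, total of 15), robust dispersions, the quasi-likelihood F test and Benjamini-Hochberg adjustment over all genes, called under 0.05. Separate fits covered the 17 soleus libraries, the 17 libraries labelled plantaris and the 18 aged libraries. CPM use TMM factors over all 34 libraries, and levels per kb the union exon length of GENCODE vM21 (GRCm38), whose gene starts match the table.

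Groups follow muscle, age and training in the labels. For aged plantaris the title reads soleus but the source name plantaris, and the latter was followed; the extraction notes of all samples name plantaris. Aged numbers come from the labels, young ones from deposition order. The 7 genes and all gene lists were chosen with earlier results of these data known; 1 gene of the core clock list is not reported here. All 7 are named everywhere; of each list, called members up to 4 by absolute log2 fold change, or 2 by smallest p where none was called; for likeness, the 3 highest r in soleus. Alternatives were DESeq2 1.42.0, RLE factors, no filter, only the groups compared or all 8 in one fit, the label numbers as a block, a term for an rRNA repeat share under 0.7%, omission of 2 aged plantaris libraries and of each library in turn. Correlations used numpy 2.4.6. Fits were tested on simulated data. Replicates differed by more than counting error (smallest chi-square per degree of freedom 5.15), so no 2 libraries were merged.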

Additional observations from a re-analysis of the deposited data

Results flagged for a closer look

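Among 56 sets of a gene and a group, 5 had 1 library far above the rest, where chance gives about 1 in 20. Nfil3 stood at 124.4 CPM in aged plantaris sedentary 12, with 45.1 CPM next, and at 36.7 CPM in young soleus sedentary 2, with 17.1 CPM next. Hlf stood at 7.68 CPM in aged plantaris sedentary 16, with 4.03 CPM next. Dbp stood at 111.4 CPM in PoWeR 3 of the libraries labelled young plantaris, with 84.0 CPM next, and Ciart at 3.46 CPM in aged plantaris PoWeR 15, with 1.58 CPM next. No gene had groups that moved in opposite directions without overlap.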

How the results depend on the processing

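The Tef calls in young soleus and both age comparisons, and the Hlf calls with age, held in every alternative run. The causes of the shifts below were not tested. Where libraries were left out, their smaller number and the identity of those omitted cannot be told apart. Ciart, at 6 to 228 reads per library, is the gene whose precision depth limits most.

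Aged replicate numbers recur across training and across muscles. Sedentary and PoWeR libraries of 1 number did not deviate together (r of -0.12 to 0.07 in soleus and -0.30 to 0.17 in plantaris, 3 pairs each). Soleus and plantaris of 1 number had r of 0.05 to 0.47, over 0.1 in 8 of 9 pairs, and 8 of 9 soleus libraries correlated best with their own number, a hint from the data and not the design. With the replicate block, 10 genes and 0 of the 7 were called for PoWeR in aged soleus (log2 differences of 0.40 for Tef and 0.14 for Nfil3), 1 gene in aged plantaris (log2 difference of -0.08 for Tef) and 2 in the muscle by PoWeR interaction. Of the 7, the block gave 3 calls between muscles in sedentary mice (Tef, Bhlhe40 and Bhlhe41, adjusted p = 0.00030, 2.7e-05 and 0.019 by edgeR) and 1 after PoWeR (Bhlhe40, adjusted p = 0.0025 by edgeR). Over all genes the block fit called 5218 of 14823 between sedentary and 3592 of 14823 between PoWeR muscles.

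DESeq2 called 371 genes for PoWeR in aged soleus, 110 in aged plantaris and 225 in the libraries labelled young plantaris, 73 and 183 in the age and muscle interactions, and 2 of the 7 between sedentary muscles, as did RLE factors and the fit of only the groups compared. Over all genes those fits called 5153 of 14815, 4831 of 14823 and 4953 of 13819 between sedentary muscles, in that order. The fit of only the groups compared called 229, 0, 358 and 87 genes for PoWeR in aged soleus, aged plantaris, young soleus and the libraries labelled young plantaris, with 1 of the 7 in the last. No filter left 2 genes in aged plantaris. All 8 groups in one fit called 3 genes for the muscle interaction, and Tef's age interaction was 0.0041 on the log2 scale, not called. The rRNA term left 620 genes in young soleus (Bhlhe41 -0.09) and 1 in the libraries labelled young plantaris (Hlf -0.07, Nfil3 -0.29). Omitting the 2 aged plantaris libraries gave 8 genes for PoWeR there (log2 differences of 0.14 for Bhlhe40 and 0.08 for Bhlhe41), Dbp log2 muscle differences of 0.21 sedentary and -0.23 after PoWeR, a Dbp muscle interaction of -0.44, and 2 of the 7 called between muscles after PoWeR. With that omission, 3729 of 14996 genes were called between muscles after PoWeR. Near 0, Nfil3 in young soleus was -0.02 (DESeq2), -0.01 (RLE), -0.02 (no filter) and -0.01 (only the groups compared), and Hlf between sedentary muscles -0.01, -0.01, -0.02 and -0.0039 in the same order.

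Leaving out 1 library, genes called for PoWeR ran from 36 (without PoWeR 12) to 172 in aged soleus, 0 to 10 in aged plantaris, 602 (without sedentary 2) to 2545 in young soleus and 1 (without PoWeR 2) to 227 (without sedentary 3) in the libraries labelled young plantaris, and from 0 to 58 (without young PoWeR 4) and 0 to 197 (without plantaris PoWeR 10) in the age and muscle interactions. Of the 7, 0 to 1 were called for PoWeR in aged soleus, 1 to 2 between sedentary muscles and 0 to 1 between PoWeR muscles. Over all genes, 4245 to 4647 were called between sedentary and 2659 to 3534 between PoWeR muscles. Uncalled log2 differences that changed sign ranged as follows. In aged soleus PoWeR: Nfil3 -0.54 to 0.17, Bhlhe40 -0.22 to 0.10, Bhlhe41 -0.29 to 0.17. In aged plantaris PoWeR: Dbp -0.36 to 0.68, Tef -0.14 to 0.23, Hlf -0.08 to 0.41. In young soleus PoWeR: Nfil3 -0.45 to 0.37, Bhlhe40 -0.24 to 0.05, Bhlhe41 -0.10 to 0.30. In the libraries labelled young plantaris: Hlf -0.08 to 0.15, Nfil3 -0.37 to 0.29, Bhlhe41 -0.01 to 0.24. With age after PoWeR: Bhlhe40 -0.31 to 0.02. Between sedentary muscles: Dbp -0.65 to 0.21, Hlf -0.15 to 0.33, Nfil3 -0.63 to 0.39. Between PoWeR muscles: Dbp -0.41 to 0.55, Hlf -0.00079 to 0.43, Nfil3 -0.07 to 0.64, Bhlhe41 -0.53 to 0.08. In the interactions: age Dbp -0.46 to 0.37 and Tef -0.09 to 0.05, muscle Dbp -0.10 to 0.94.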

Other observations

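Aged soleus and plantaris libraries that carry the same number and training were set side by side for each gene, 9 pairs in all, a comparison chosen after the data were seen. The labels do not say that such a pair is 1 animal. After removing group means, Bhlhe40 had r = 0.91 and rho = 0.93 across the pairs (exact permutation p = 0.00035, adjusted 0.0028 over 8 relations, Arntl included) and r = 0.82 without the 2 farthest pairs. Sedentary 13 had 51.7 CPM of Bhlhe40 in soleus and 100.5 CPM in plantaris, and sedentary 16 had 94.9 and 194 CPM. PoWeR 12 had 46.2 and 55.1 CPM, and PoWeR 14 had 96.5 and 151 CPM. Bhlhe41 had r = 0.74 and Dbp 0.72 (adjusted exact permutation p = 0.15 each), with rho of 0.80 and 0.85 (adjusted exact permutation p = 0.063 and 0.061). Ciart, the gene with the fewest reads, had r = 0.26 (adjusted exact permutation p = 0.48).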
